A study of Mus musculus with 6 samples.

Results

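The 9 genes described here make, bind and clear retinoic acid in the mouse: *Rdh10*, *Dhrs3*, *Aldh1a1*, *Aldh1a2*, *Aldh1a3*, *Crabp1*, *Crabp2*, *Cyp26a1* and *Cyp26b1*. They were taken by gene symbol from the 56748 genes of the count table, and 8 of them had enough reads to be tested among 17146 genes in all. The family was selected on a measured value, namely that of *Aldh1a2*, which had the smallest p-value of all genes lower in the libraries labelled Gsdmd-deficient. The difference in *Aldh1a2* is therefore given as a description, without a test. The other 8 genes came in as relatives of *Aldh1a2*, in the same comparison and with its results known, so their adjusted p-values show where they lie among all genes and are not independent evidence about the family.

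The libraries are 6 in number and hold RNA of primary osteocyte cultures, which are cells released from long bone after the marrow has been flushed out. Of these, 3 came from WT mice, and 3 from mice called cKO, whose *Gsdmd* fl/fl alleles are cut by a Cre recombinase driven by the *Dmp1* promoter (DMP1-Cre), a promoter of osteocytes and late osteoblasts. The study's methods give C57BL/6 mice of 7 weeks for the cell isolation. Every culture was grown for 7 days and then stimulated for 3 h with 10 ng/mL lipopolysaccharide (LPS) and for a further 3 h with 20 µg/mL aluminum hydroxide, so the comparison is between genotypes under stimulation. No unstimulated libraries were analysed here. The labels do not say whether the 3 libraries of a genotype came from separate animals, so the p-values measure the spread between these libraries, which may be technical.

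Each library held between 39566835 and 49734046 counts on genes. Even numbers made up 63.4% to 65.7% of the small counts (1 to 10), so that a read pair may have been counted as 2. Several values of the whole series bear on the groups. *Gsdmd* itself had 609, 699 and 549 counts in the WT libraries and 885, 937 and 1045 counts in the libraries labelled cKO. It was thus higher, not lower, in the libraries labelled cKO (log2 fold change 0.69, adjusted p = 2.27e-06 in edgeR), without overlap. That count covers the whole gene, exons outside the deleted part included, and reads over single exons were not examined. The reason for the rise was not tested, and cKO is used below only as the label. *Xist* had between 0 and 4 counts in WT and between 44817 and 51216 counts in cKO, and the Y-linked genes *Ddx3y*, *Kdm5d*, *Uty* and *Eif2s3y* were at 0 in all 3 cKO libraries, so sex and genotype cannot be told apart. Among the defining markers of osteocytes, *Sost* and *Dkk1* were at 0 in all 6 libraries and *Dmp1* had at most 6 counts, and of the 7 markers listed *Pdpn* was the one with enough reads to be tested. All 14 tested macrophage markers of 16 listed were called higher in cKO, and the summed level of the list was 1202 to 1358 CPM (counts scaled to a common library size) in WT and 6436 to 6743 CPM in cKO. Of the 6 smooth muscle and pericyte markers, 5 were called lower, with a sum of 1145 to 1335 CPM in WT and 493 to 554 CPM in cKO. Both tested mesothelial markers of 5 listed, *Krt19* and *Msln*, were called lower, with a sum of 16.9 to 22.7 CPM against 0.572 to 1.16 CPM. Most of that sum was *Krt19* alone, at a mean of 19.7 CPM in WT and 0.883 CPM in cKO. *Msln* had 11, 33 and 25 counts in WT and 6, 0 and 0 in cKO. The untested markers of the list had at most 6 counts in any library. Markers of other cells were called too. Of 5 tested endothelial markers, 4 were lower and 1 higher (sums of 6.62 to 7.21 CPM in WT and 6.32 to 6.71 CPM in cKO). Within that sum, mean *Kdr* rose from 1.35 to 5.55 CPM, while *Pecam1* fell from 1.42 to 0.687 and *Cdh5* from 1.69 to 0.197. Of 10 fibroblast and periosteal markers 4 were lower (10211 to 10770 and 10386 to 11094 CPM). Most of that sum was *Col3a1*, at a mean of 7548 CPM in WT and 8257 CPM in cKO. Mean *Postn* fell from 231 to 26.4 CPM, *Mfap5* from 96.6 to 28.1 and *Dpp4* from 2.32 to 0.476. Without the fold limit, 7 of these 10 markers were lower and 2 higher. Of 6 tested chondrocyte markers 3 were higher (1971 to 2184 and 2946 to 3134 CPM). Osteoblast markers had 1 higher call of 8 tested, although their sum was lower in cKO (16822 to 19033 and 12084.5 to 12589 CPM). Tendon markers had 1 higher of 5 tested (1758 to 1919 and 4049 to 4209 CPM). Marrow stromal markers had 1 higher and 2 lower of 9 tested (1275 to 1349 and 1731 to 1769 CPM). Dendritic cell and neutrophil markers had 1 higher of 2 tested each. In cultures sequenced in bulk, fewer cells of a type and less RNA per cell cannot be told apart. The part of these differences in the results below was not tested.

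Retinoic acid is the active form of vitamin A. Cells oxidize retinol to retinaldehyde with *Rdh10*, the enzyme *Dhrs3* reduces retinaldehyde back to retinol, and the retinaldehyde dehydrogenases *Aldh1a1*, *Aldh1a2* and *Aldh1a3* oxidize retinaldehyde to retinoic acid in a step that is not reversed. *Crabp1* and *Crabp2* bind retinoic acid in the cytosol, and the cytochrome P450 enzymes *Cyp26a1* and *Cyp26b1* oxidize it for clearance. In the nucleus, retinoic acid binds receptors (RAR) that sit with a partner (RXR) on paired half-sites in DNA, and the acid is known to pattern the limb skeleton and to act on both bone-forming and bone-resorbing cells.

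Such paired half-sites were looked for as a picture of where the pathway meets its target genes. The search used the half-site AGGTCA, the variant AGTTCA, the variant GGGTCA and the variant GGTTCA in all 16 ordered pairs, with 5 bases between them and on both strands, in RefSeq promoters of GRCm38.p6 that run from 250 bases before to 50 bases after a gene's start. Promoters were given for 6 of the 9 genes and for 19 of the 32 retinoic acid-responsive genes introduced further on. The repeat was found in 2 of these genes, *Cyp26a1* and the receptor gene *Rarb*, both of which are textbook targets of retinoic acid. Across all genes, 32 of 32851 promoters held it, or 0.0974%. Repeats of the same half-sites with 1 or 2 bases between them occurred in 0.222% and 0.268% of all promoters and in none of those listed. The stretches are shown because *Rarb* was among the called genes and *Cyp26a1* had no counts here. Capitals mark the half-sites, and 15 of the 17 bases of the repeat are identical between the genes. In GRCm39 coordinates, the *Rarb* stretch is chr14:5894228-5894256 on the plus strand, and its repeat lies 53 to 37 bases before the RefSeq start. The *Cyp26a1* stretch is chr19:37686218-37686246, read on the minus strand, opposite to the gene, and its repeat lies 32 to 16 bases before the start.
*Rarb*: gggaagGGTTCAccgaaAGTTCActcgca
*Cyp26a1*: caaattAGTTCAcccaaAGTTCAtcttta
A match says that these letters are in the window, and no match says only that they are not in it.

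*Aldh1a2* encodes the retinaldehyde dehydrogenase that supplies most retinoic acid in the embryo and is known from mesenchymal and mesothelial tissue. The gene (ENSMUSG00000013584, chr9:71123071-71203525, plus strand, GRCm39 coordinates as in the table) had 4076, 4486 and 3924 counts in the 3 WT libraries and 41, 29 and 46 counts in the 3 cKO libraries. After scaling of the libraries by edgeR's TMM method, these were 90.6, 90.4 and 101.1 CPM in WT and 0.974, 0.729 and 1.01 CPM in cKO. The lowest WT library was far above the highest cKO library, and the spread within each genotype was small. The means were 94.0 ± 6.13 CPM in WT and 0.905 ± 0.154 CPM in cKO (SD, n = 3 each), a ratio of 103.8 of WT over cKO, and the fitted log2 fold change of cKO against WT was -6.68 with a standard error of 0.10.

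By p-value *Aldh1a2* stood first of the 8414 genes fitted lower in cKO, which is what chose it. The next genes in that order were the Y-linked *Ddx3y*, at 106.7 CPM in WT and 0 in cKO, then *Postn*, a matrix protein of periosteum and fibroblasts, at 231 against 26.4 CPM, and *Lgi2*, at 44.7 against 1.549 CPM. By fold change *Aldh1a2* was 23rd among the lower genes, and 26 genes, or 0.152% of those tested, had a log2 fold change of -6 or less. Leaving out each library in turn moved its fold change between -6.77 and -6.56. Of the marker sums given above, the mesothelial, mural and osteoblast sums moved in the same direction between the same libraries. The macrophage, chondrocyte, tendon and marrow stromal sums moved in the opposite one. The chondrocyte, tendon and marrow stromal rises lay mainly in *Comp* (567 to 2117 CPM), *Fmod* (1794 to 4093) and *Cxcl12* (334 to 1053). Other markers of these lists fell, such as *Col2a1* (1428 to 798 CPM), *Scx* (23.6 to 19.7), *Kitl* (98.1 to 27.7) and *Grem1* (486 to 228). Without the fold limit, 5 chondrocyte markers were higher and 1 lower, against 1 and 1 for tendon and 4 and 2 for marrow stroma. The fibroblast and periosteal sum overlapped between the genotypes, although 4 of its 10 markers were called lower. The part of these differences in that of *Aldh1a2* was not tested.

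**Figure D1:**
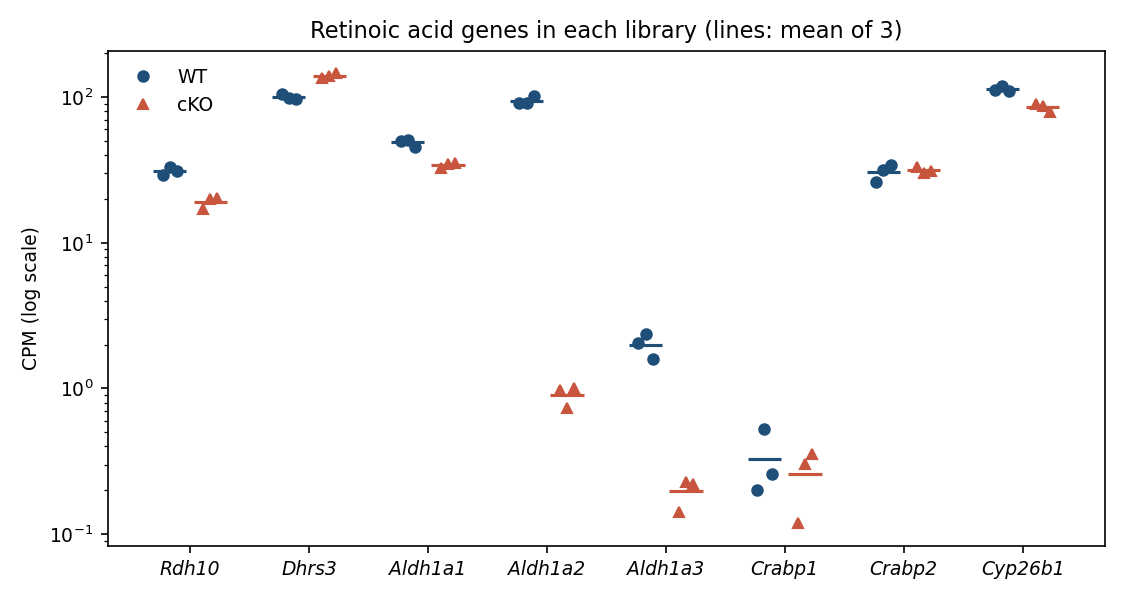
Level of 8 retinoic acid genes in each library, in CPM on a log axis, with WT libraries as circles, cKO libraries as triangles and lines at the mean of 3. *Cyp26a1*, at 0 in all libraries, is not drawn. *Aldh1a2* and *Aldh1a3* have their cKO points well below their WT points, *Dhrs3* has its cKO points above, and the points of *Crabp1* and *Crabp2* overlap.

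*Aldh1a3*, the retinaldehyde dehydrogenase best known from the eye and nasal region, was called lower as well. It (chr7:66040638-66077265, minus strand) had 92, 117 and 62 counts in WT and 6, 9 and 10 counts in cKO. These corresponded to 2.04, 2.36 and 1.60 CPM in WT and 0.143, 0.226 and 0.220 CPM in cKO, without overlap. The log2 fold change was -3.33 with a standard error of 0.39, a ratio of 10.2 of WT over cKO (edgeR quasi-likelihood test, adjusted p = 1.60e-06). Its level per kilobase in WT lay at the 18.7th percentile of the tested genes, whereas *Aldh1a2* lay at the 94.4th, so the large ratio of *Aldh1a3* was one between low levels.

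*Aldh1a1*, the third retinaldehyde dehydrogenase, which is widespread in adult tissues, fell by much less. It (chr19:20470079-20620829, plus strand) was at 50.2, 51.0 and 45.4 CPM in WT and at 32.6, 34.6 and 35.3 CPM in cKO. All cKO values were below all WT values, with a log2 fold change of -0.52 and a standard error of 0.06 (adjusted p = 2.66e-06 in edgeR), short of the fold limit of 1 on the log2 scale that a call required. The coding sequence of *Aldh1a1* is 91.6% identical to that of *Aldh1a7*, a rodent paralog, so reads could be split between them. *Aldh1a7* had 4 to 20 counts per library, against 1373 to 2531 of *Aldh1a1*, and its own difference did not pass (log2 fold change -0.83, adjusted p = 0.284 in edgeR). The coding sequences of *Aldh1a1*, *Aldh1a2* and *Aldh1a3* are 66.8% to 68.5% identical to one another. An antisense RNA that overlaps *Aldh1a1*, C730002L08Rik, had at most 6 counts in any library.

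Per kilobase of gene length, the only scale on which levels of different genes are compared here, the sum of the 3 dehydrogenase genes was 51.9 ± 2.02 CPM per kilobase in WT and 7.36 ± 0.284 in cKO (SD, n = 3 each), a ratio of 7.05. *Aldh1a2* made up 79.0%, 78.7% and 82.4% of that sum in the WT libraries and 6.09%, 4.37% and 5.86% in the cKO libraries. *Aldh1a1* took the largest share in cKO, 94.0% ± 0.847 against 19.1% ± 1.89 in WT, although its own level was lower there. *Aldh1a3* made up 0.840% in WT and 0.575% in cKO on average. The transcripts for the last step to retinoic acid thus came mostly from *Aldh1a2* in WT and mostly from *Aldh1a1* in cKO. These shares use the fold of *Aldh1a2* and are a description.

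**Figure D2:**
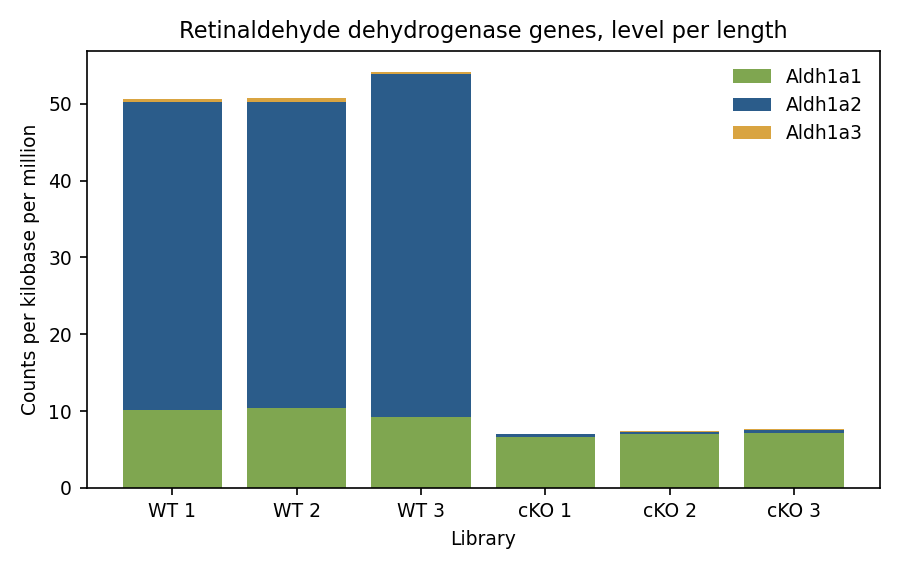
Levels of *Aldh1a1*, *Aldh1a2* and *Aldh1a3* in each library, stacked, in CPM per kilobase of gene length. The WT bars reach a mean of 51.9 and are mostly *Aldh1a2*, whereas the cKO bars reach a mean of 7.36 and are mostly *Aldh1a1*.

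The genes for retinol oxidation and for retinaldehyde reduction differed in opposite directions. *Rdh10* (chr1:16175998-16203958), the dehydrogenase that makes retinaldehyde, was at 29.3, 32.9 and 31.1 CPM in WT and at 17.0, 20.0 and 20.4 CPM in cKO. It fell by 0.70 on the log2 scale with a standard error of 0.08 (adjusted p = 1.99e-06 in edgeR). *Dhrs3* (chr4:144619397-144654779), the reductase that returns retinaldehyde to retinol and is itself induced by retinoic acid, was at 104, 99.0 and 96.5 CPM in WT and at 135, 140 and 146 CPM in cKO. It rose by 0.49 with a standard error of 0.05 (adjusted p = 2.18e-07 in edgeR). The libraries of both genes did not overlap between genotypes, and both changes were smaller than the fold limit of a call.

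The binding proteins did not pass the test. *Crabp2* (chr3:87855973-87860683), which carries retinoic acid to its receptors, was at 26.3, 31.5 and 34.0 CPM in WT and at 33.2, 30.1 and 31.1 CPM in cKO. The genotypes overlapped, with a log2 fold change of 0.04, a standard error of 0.08 and an adjusted p of 0.750 in edgeR. *Crabp1* (chr9:54672032-54680394) was near the limit of detection, with 9, 26 and 10 counts in WT and 5, 12 and 16 counts in cKO (log2 fold change -0.35, standard error 0.60, adjusted p = 0.695 in edgeR). The sign of both was set by single libraries: *Crabp1* had a log2 fold change of 0.17 without WT replicate 2, and *Crabp2* of -0.07 without WT replicate 1. For *Crabp1*, with its standard error of 0.60, a small or moderate difference was not detectable at this depth.

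The clearing enzymes were represented by *Cyp26b1* alone. *Cyp26b1* (chr6:84548396-84570890), the form that shapes retinoic acid levels in the skeleton and the testis, was at 111, 119 and 111 CPM in WT and at 89.7, 87.2 and 78.9 CPM in cKO. Every cKO library was below every WT library, and the gene fell by 0.42 on the log2 scale with a standard error of 0.05 (adjusted p = 6.43e-06 in edgeR). *Cyp26a1* (chr19:37686246-37689984), the form known to be induced most directly by retinoic acid, had 0 counts in all 6 libraries and was not tested. A count of 0 allows up to 3 counts, or 0.0605 to 0.0773 CPM depending on the library, and up to 6 counts, or 0.121 to 0.155 CPM, if each read pair was counted as 2. This limit covers counting error only.

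Counted together, 2 of the 8 tested genes were called lower, 0 higher and 6 neither, where a call required an adjusted p-value below 0.05 and a log2 fold change of at least 1 in size. Of all 17146 tested genes, 4.64% were called lower and 6.56% higher, 11.2% in all. Without the fold limit 5 were lower, 1 higher and 2 neither, against 19.2% lower and 20.1% higher (39.3% in all) of the tested genes, and the WT and cKO libraries were apart in 6 of the 8, against 49.2% of all tested genes. The median log2 fold change of the 8 was -0.47, against 0.0077 for all tested genes. Since the family was chosen in this comparison, nothing is read from these counts.

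Per kilobase, the order of the genes in WT was *Aldh1a2* at 41.5, *Dhrs3* at 34.1, *Crabp2* at 23.2, *Cyp26b1* at 21.3, *Aldh1a1* at 9.90, *Rdh10* at 7.48, *Aldh1a3* at 0.433 and *Crabp1* at 0.408 CPM per kilobase. Neighbours in this order were separate in all 3 libraries except *Crabp2* with *Cyp26b1* and *Aldh1a3* with *Crabp1*. In cKO the order was *Dhrs3* at 47.8, *Crabp2* at 23.8, *Cyp26b1* at 15.9, *Aldh1a1* at 6.92, *Rdh10* at 4.60, *Aldh1a2* at 0.400, *Crabp1* at 0.321 and *Aldh1a3* at 0.0425, and *Aldh1a2* and *Crabp1* overlapped. *Aldh1a2* thus went from the highest of the 9 to below *Rdh10*, and the genes other than *Aldh1a2* and *Crabp1* kept their order. Among all tested genes *Aldh1a2* moved from the 94.4th to the 17.0th percentile of level per kilobase, while *Dhrs3* lay at the 93.0th in WT and the 95.1st in cKO.

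Around these 9 genes, 6 further lists of the pathway were described, each by its counts and its median. They hold genes that take up and carry retinol, other oxidoreductases, other aldehyde dehydrogenases, other P450 enzymes with a second carrier, receptors with their coregulators, and genes known to respond to retinoic acid. Some genes, such as *Rarb*, *Stra6* and *Nrip1*, stand in more than 1 of these lists, and their values count in each. As with the 9 genes, the lists were written with results of these data known.

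**Figure D3:**
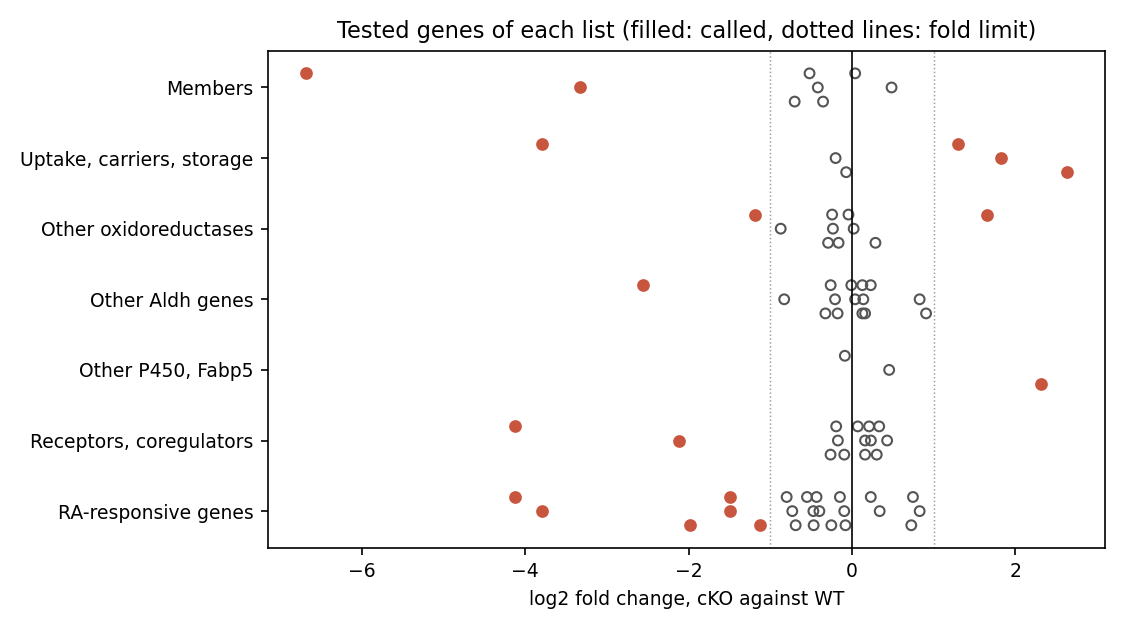
Log2 fold change of cKO against WT for tested genes of the 9-gene family and the 6 pathway lists. Filled points were called, and the dotted lines mark the fold limit of 1 in each direction. Called genes lie on both sides in the uptake and oxidoreductase lists, and on the lower side alone among the receptors and the retinoic acid-responsive genes.

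Genes of retinol uptake, carriage, storage and carotenoid cleavage went both ways. Of 15 listed, 7 were tested. The calls were 3 higher and 2 lower, and the median log2 fold change was -0.07. *Stra6*, the membrane receptor for plasma retinol-binding protein, was called lower on few reads, with 14, 14 and 33 counts in WT and 4, 0 and 0 in cKO (log2 fold change -3.80, standard error 0.93, adjusted p = 0.00326 in edgeR). With 2 of the cKO libraries at 0, that fitted fold ran from -7.39, without cKO replicate 1, to -3.13 over the alternatives. Its relative *Stra6l*, another receptor for that protein, rose instead, with 34, 54 and 45 counts in WT and 237, 238 and 317 in cKO (log2 fold change 2.63, adjusted p = 1.73e-08 in edgeR). *Rbp4*, the secreted carrier of retinol itself, rose from 14.6 ± 0.661 CPM in WT to 35.9 ± 1.60 CPM in cKO (edgeR log2 fold change 1.30, adjusted p = 1.26e-10). *Bco2*, a carotenoid-cleaving oxygenase, had 22, 14 and 6 counts in WT and 45, 54 and 42 in cKO (log2 fold change 1.83, adjusted p = 0.00391 in edgeR). The genes of the list with the most counts differed less: *Scarb1*, a lipoprotein and carotenoid receptor, had a log2 fold change of -0.07 (adjusted p = 0.336 in edgeR), and *Dgat1*, which esterifies retinol and other acyl acceptors, one of -0.20 (adjusted p = 0.0494 in edgeR), which did not pass in 7 of the alternatives. *Lrat*, the main retinol-esterifying enzyme, was at 0 in all libraries.

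Among 21 other oxidoreductases of retinol and retinaldehyde, 10 were tested. There was 1 higher and 1 lower call, and the median log2 fold change was -0.20. *Dhrs9*, a dehydrogenase able to oxidize retinol and known from macrophages and epithelium, rose from 6.33, 6.31 and 4.35 CPM in WT to 17.3, 20.5 and 16.0 CPM in cKO (edgeR log2 fold change 1.66, adjusted p = 2.70e-08). *Adh7*, an alcohol dehydrogenase active on retinol, fell from 6.24, 8.12 and 6.44 CPM to 3.45, 2.77 and 2.91 CPM, a log2 fold change of -1.19 in edgeR (adjusted p = 1.75e-05). *Adh5* and *Dhrs7*, with the most counts of the list, fell by 0.24 and 0.23 on the log2 scale, inside the fold limit.

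Of 18 other aldehyde dehydrogenases, most of which are known for other aldehydes, 15 were tested. There was 1 lower call and 0 higher, and the median log2 fold change was 0.04. The called gene was *Aldh1l2*, a mitochondrial enzyme of folate metabolism that does not make retinoic acid, and it fell from 87.3 ± 9.27 to 14.8 ± 0.961 CPM (SD, n = 3 each, log2 fold change -2.56, adjusted p = 1.98e-14 in edgeR). *Aldh2*, which clears acetaldehyde and had the most counts of the list, was at 301 ± 8.97 CPM in WT and 332 ± 4.50 CPM in cKO, a log2 fold change of 0.14 (adjusted p = 0.00738 in edgeR). *Aldh18a1*, of proline synthesis, had one of -0.17 (adjusted p = 0.0177 in edgeR). The difference of *Aldh2* did not pass in 2 of the alternatives and that of *Aldh18a1* in 3. In the list of 4 genes that holds other retinoid-oxidizing P450 enzymes and the carrier *Fabp5*, 3 were tested, 1 was called higher and 0 lower. *Fabp5*, a fatty acid-binding protein that can carry retinoic acid to the receptor *Ppard* and is abundant in macrophages, rose from 41.0, 47.3 and 42.4 CPM to 210.0, 224.7 and 217.4 CPM, a log2 fold change of 2.32 in edgeR (adjusted p = 1.26e-15). *Cyp1b1*, a P450 enzyme with many substrates, rose from 543 ± 29.6 to 745 ± 27.6 CPM, by 0.46 on the log2 scale. The macrophage markers rose in the same libraries as *Fabp5* and *Dhrs9*, and a link between them was not tested.

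Among the 6 receptor genes of retinoic acid, *Rarb* and *Rxrg* were called lower, the latter on few reads. Of the 15 receptors and coregulators, all were tested. There were 2 lower calls and 0 higher, and the median log2 fold change was 0.07. *Rarb* (chr14:5650540-6038924), the receptor gene whose promoter repeat is shown above, had 295, 381 and 270 counts in WT and 13, 22 and 16 counts in cKO. These were 6.55, 7.68 and 6.96 CPM in WT and 0.309, 0.553 and 0.352 CPM in cKO, without overlap, and the log2 fold change was -4.13 with a standard error of 0.24 (adjusted p = 1.58e-10 in edgeR). By p-value *Rarb* was 164th among the genes fitted lower. Its promoter repeat lies inside the coordinates of the gene, not before their first base. The counts cover the whole gene and do not show from which start its RNA came. *Rxrg*, a partner receptor, was called lower on 20, 22 and 35 counts in WT and 7, 6 and 4 in cKO (log2 fold change -2.12, adjusted p = 0.00771 in edgeR), and that call was lost without WT replicate 3 (log2 fold change -1.71, adjusted p = 0.0547 in edgeR).

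The other receptors differed by less than 0.4 on the log2 scale. *Rarg* went from 117 ± 0.760 to 102 ± 1.95 CPM, a log2 fold change of -0.19 (adjusted p = 0.00178 in edgeR). *Rara* had a log2 fold change of -0.17 (adjusted p = 0.0432 in edgeR), which did not pass in 8 of the alternatives. *Rxra* rose from 114 ± 5.16 to 141 ± 2.44 CPM, a log2 fold change of 0.30 in edgeR (adjusted p = 3.49e-05), and *Rxrb* had one of 0.16 (adjusted p = 0.0427 in edgeR) that did not pass in 10 of the alternatives. Among the coregulators, the corepressor *Ncor1* had a log2 fold change of 0.07 (adjusted p = 0.210 in edgeR).

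Of 32 genes outside the family known to respond to retinoic acid, 24 were tested. Of these 7 were called lower and 0 higher, beside the 4.64% of all tested genes called lower and the 6.56% called higher. Without the fold limit 15 were lower, 3 higher and 6 neither, beside 19.2% lower and 20.1% higher of all tested genes, and the median log2 fold change was -0.47, beside 0.0077 for all tested genes. Many of these genes answer to other signals too, and *Rarb* and *Stra6*, already described, are 2 of the 7. Genes of the family were kept out of this list, although retinoic acid induces *Dhrs3* and *Cyp26a1* too. *Dhrs3* rose by 0.49 on the log2 scale, and *Cyp26a1* was at 0 in all libraries. Without the fold limit, 5 genes of the family were lower and 1 higher. *Ret*, a receptor tyrosine kinase for neurotrophic factors, fell from 21.0, 21.6 and 24.8 CPM to 5.80, 6.14 and 5.11 CPM, a log2 fold change of -1.98 in edgeR (adjusted p = 6.31e-11). *Meis2*, a homeobox factor of the proximal limb, fell from 26.3, 27.7 and 30.6 CPM to 12.2, 14.5 and 12.1 CPM, a log2 fold change of -1.13 in edgeR (adjusted p = 1.66e-08). *Nr2f1*, an orphan nuclear receptor, fell from 4.64 ± 0.457 to 1.65 ± 0.438 CPM, and *Rarres2*, which encodes the chemoattractant chemerin, from 4.57 ± 0.732 to 1.62 ± 0.241 CPM (log2 fold change -1.49 for each). *Rai14*, an actin-associated protein with the most counts of the list, fell from 260 ± 5.14 to 157 ± 4.48 CPM, by 0.73 on the log2 scale.

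The genes of this list that passed the test in the other direction were *Tgm2*, *Btg2* and *Hoxb4*, whose changes were all inside the fold limit. *Tgm2*, a transglutaminase that retinoic acid induces in macrophages, rose from 100 ± 9.43 to 166 ± 6.55 CPM, a log2 fold change of 0.73 in edgeR (adjusted p = 1.44e-08). *Btg2*, an antiproliferative gene, rose by 0.34 and the homeobox gene *Hoxb4* by 0.83 on the log2 scale. *Nrip1*, a corepressor that retinoic acid induces in many cells, had a log2 fold change of -0.09 (adjusted p = 0.161 in edgeR). Every gene was compared over the same 6 libraries, between which sex and many marker sums also differed. The part of these in the lower calls was not tested.

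**Figure D4:**
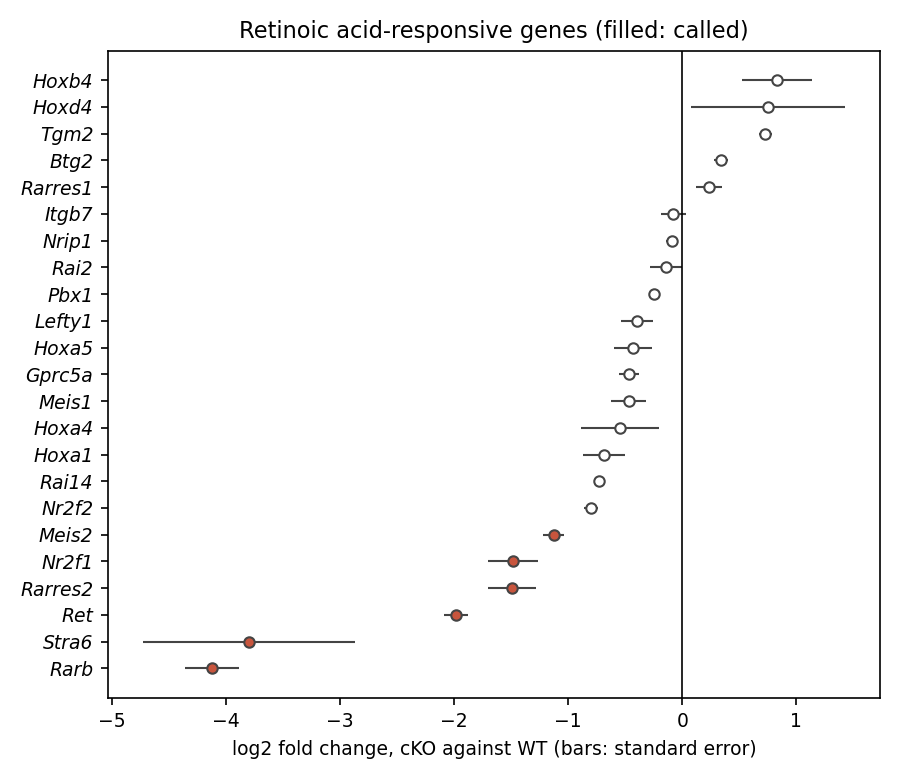
Log2 fold change of cKO against WT for 23 of the 24 tested retinoic acid-responsive genes, with bars of 1 standard error and filled points for called genes. The 6 called genes drawn run from *Meis2* at -1.13 to *Rarb* at -4.13, and *Hoxb4*, *Hoxd4* and *Tgm2* lie farthest to the right.

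The tested genes with a profile most like that of *Aldh1a2* were found by the Euclidean distance between log2 CPM values of the 6 libraries, each profile centred on its own mean. The 5 nearest were *Hsd3b6* at a distance of 0.679, *A2m* at 0.714, *Ccl11* at 1.29, *Megf10* at 1.56 and *Olr1* at 1.68. *Hsd3b6*, a steroid-metabolizing dehydrogenase, had 188, 227 and 295 counts in WT and 0 in every cKO library, at least 76.8-fold lower against a floor of 3 counts per library, or at least 38.4-fold with a floor of 6. *A2m*, a protease inhibitor, had 139, 205 and 124 counts in WT and 0 in every cKO library, at least 48.9-fold lower, or 24.5-fold with the higher floor. *Ccl11*, the chemokine eotaxin, had 198, 226 and 217 counts against 4, 0 and 2. *Megf10*, an engulfment receptor of glia and muscle progenitors, had 302, 350 and 277 counts against 2, 2 and 10. *Olr1*, a receptor for oxidized lipoprotein, had 691, 653 and 539 counts against 20, 4 and 14. The likeness mostly follows the size of the difference between the genotypes on this scale, which adds a prior count of 2. For *Hsd3b6* and *A2m*, at 0 counts in cKO, that prior count set the cKO values. Their fitted log2 fold changes were -10.88 and -10.24, against -6.68 for *Aldh1a2*.

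**Figure D5:**
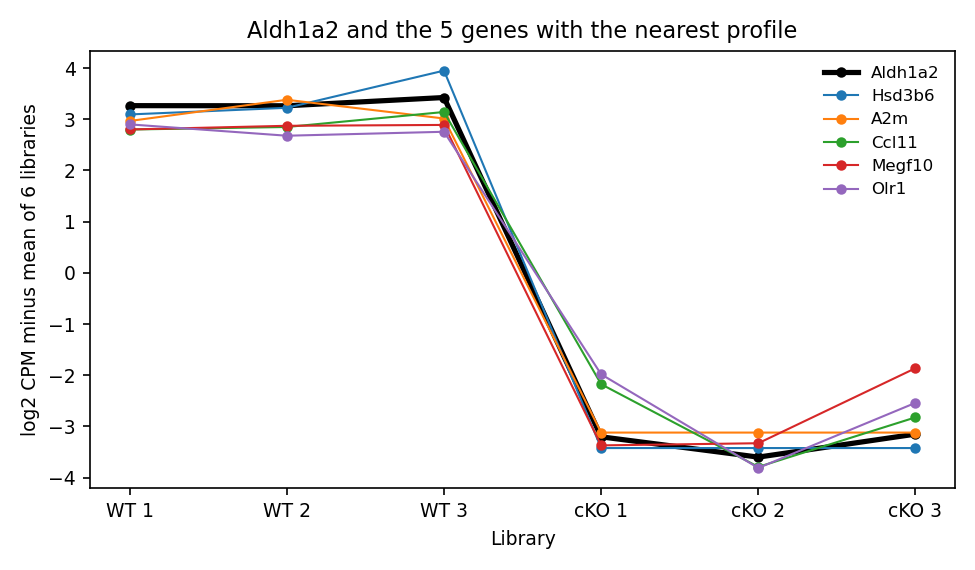
Log2 CPM of *Aldh1a2* (thick line) and of the 5 genes with the nearest profile in each library, each centred on its mean over the 6 libraries. All 6 genes are high in the 3 WT libraries and low in the 3 cKO libraries, and the cKO values of *Hsd3b6* and *A2m*, at 0 counts, are set by the prior count of 2.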

How the data were processed

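Gene expression was measured by bulk RNA sequencing of 3 WT and 3 cKO cultures, grouped by their labels. The authors trimmed 150 bp read pairs, aligned them with HISAT2 2.0.5 and counted them with featureCounts (release 1.55.0-p3 in the labels). The study's methods give another featureCounts release and also name RSEM. The deposited values are raw counts per gene, with a gene length, on GRCm39. The kit was directional, and the strand setting of the counting is not given in the sources used here. The deposited gene length and coordinates were used as they stand.

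From these counts, edgeR 4.0.16 in R 4.3.3 gave filterByExpr filtering, TMM scaling, CPM and a quasi-likelihood test (glmQLFit, glmQLFTest) of genotype, with Benjamini-Hochberg adjustment over the 17146 tested genes. Profiles were compared on log2 CPM with a prior count of 2. Counts of replicates differed by more than sampling noise (chi-square per gene 4.80 to 13.9), so all 6 libraries were kept. In simulated counts for this comparison (16842 genes tested), 175 of 200 changed genes were recovered and 6 others were called. The simulation used the dispersions fitted here, and its changes were all larger than the fold limit. It says nothing of smaller differences. Promoter sequences are RefSeq's, of GRCm38.p6, and their GRCm39 positions were found by exact match.

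The family, the lists and the tests were chosen with earlier results of these data known. The genes named are the 9 of the family, *Gsdmd*, called genes of the pathway lists, the 6 receptor genes of retinoic acid, the 2 tested genes with the most counts in each list, up to 3 called markers of a cell type, sex-linked genes and the 5 genes most like *Aldh1a2*. Other genes (*Btg2*, *Hoxb4*, *Hoxd4*, *Nrip1*, *Lrat*, *Aldh1a7*, *Col2a1*, *Col3a1*, *Scx*, the RNA antisense to *Aldh1a1*, the osteocyte markers, the 3 genes that follow *Aldh1a2* by p-value and the neighbours of *Aldh1a2*) were named after their values were seen. Alternatives were DESeq2 1.42.0, limma-voom (limma 3.58.1), robust estimation, other scalings and filters, halved counts, a replicate block, no fold limit and each library left out. For single genes outside the family, the folds under these alternatives were a later addition, made with the data seen. Unstimulated cultures and protein data were not analysed here, and a few genes that the naming rule covers are not reported here, although the counts of the lists include them.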

Additional observations from a re-analysis of the deposited data

How the results depend on the processing

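Over 15 alternatives, the genes called ranged from 1027 to 1219 higher and from 691 to 931 lower. Dropping the fold limit raised the counts to 3445 higher and 3285 lower of all genes, 1 and 5 of the family, 2 and 3 of the oxidoreductases, 4 and 3 of the other aldehyde dehydrogenases, 7 and 6 of the receptors and coregulators, 3 and 15 of the retinoic acid-responsive genes, and 2 higher of the P450 list. With counts halved, 1 gene was called lower in the uptake list and 1 among the receptors. Leaving out 1 library at a time, the lower oxidoreductases ranged from 1 to 3 (3 without WT replicate 3, 2 without cKO replicate 1), the higher aldehyde dehydrogenases from 0 to 1 and the lower receptors from 1 to 2 (both changes without WT replicate 3). The log2 fold change of *Crabp1* then ranged from -0.65 to 0.17 (the highest without WT replicate 2) and that of *Crabp2* from -0.073 to 0.12 (the lowest without WT replicate 1). The cause of these changes was not tested. Without division by gene length, the share of *Aldh1a2* was 64.8% in WT and 2.57% in cKO. Same-numbered libraries did not deviate together (correlations -0.0103 to 0.00228), and with the replicate number as a block 1087 genes were called higher and 772 lower, 0 and 2 of the family. Of 44 genes followed, 6 crossed the limit of the test in some setting. Low counts limit what can be said of *Crabp1*, *Stra6* and *Rxrg*.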

Other observations

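Within 500 kb of *Aldh1a2* on chromosome 9, 5 other genes were tested, and 0 of them were called lower. *Cgnl1*, a junction protein, had a log2 fold change of -0.06 (adjusted p = 0.329 in edgeR), and *Myzap* one of -0.42 (adjusted p = 0.113 in edgeR). *Polr2m* fell by 0.23 and the protease gene *Adam10* rose by 0.15 on the log2 scale, both inside the fold limit. *Aqp9*, a channel for water and glycerol, was called higher, at 0.386 CPM in WT and 3.71 CPM in cKO (log2 fold change 3.23, adjusted p = 9.19e-08 in edgeR).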
